A study of Arabidopsis thaliana with 24 samples.

Results

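Nitrate is both a nutrient and a signal for plants. When seedlings that lack nitrogen receive it, NLP7, a transcription factor that senses nitrate, and other regulators change the transcription of a large set of genes within hours. The uptake and reduction of nitrate are the best known targets. The comparison described here is the transcript response of wild-type Arabidopsis thaliana Col-0 seedlings to 10 mM KNO3 for 3 h, set against mock treatment, and it covers every process beyond those uptake and reduction genes.

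The members are all 22954 genes in the authors' deposited table for this comparison, of 23865 genes listed in any of the 5 tables of the series, and 6 of the 24 libraries belong to it. The KNO3 group was wild type with 10 mM KNO3 for 3 h (3 biological replicates), and the mock group was wild type with the mock treatment (3 biological replicates). The sample labels say mock only, and the authors' name for the comparison gives the mock side as KCl. In every group whole seedlings had been raised with 7 mM KNO3 for 7 days, in cycles of 16 h light and 8 h dark, and then kept for 2 days without nitrogen. The same contrast of KNO3 over mock exists for the mutants hbi-q, named for HBI bHLH transcription factor genes, and nlp7-1, a mutant allele of NLP7. A further contrast in wild type sets KNO3 with 0.5 mM H2O2 against H2O2 alone. Each of these groups had 3 replicates. Neither the HBI genes that are mutant in hbi-q nor the number of seedlings per replicate is stated, and whole seedlings hold root and shoot together.

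Every value of a nitrate response below is the authors' own DESeq2 estimate from the authors' deposited table, given as log2 fold change ± standard error (SE), KNO3 over mock. No value per library was analysed here, so the values in each sample and the overlap of samples between groups cannot be given. The call of a gene as higher or lower required 2-fold change or more together with a Benjamini-Hochberg adjusted p-value under 0.05. The words rose and fell are used of such genes. By this criterion 2167 genes, or 9.44%, rose and 1264, or 5.51%, fell, which is 14.9% in either direction. These percentages are the background against which each count over a gene group should be read. Since these are bulk samples, fewer cells of a type and less RNA per cell cannot be told apart.

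Most called changes were modest, and the large ones were mostly increases. Of the genes that rose, 1670 changed by less than 2 on the log2 scale, 283 by 2 to 3, 165 by 3 to 5, and 49 by more than 5. Of those that fell, 1010, 185, 63 and 6 lay in the same classes of size. Without a minimum fold, 13369 genes (58.2%) had an adjusted p-value under 0.05, so a small shift in most transcripts was measurable with these errors. The median SE was 1.06 for genes with a base mean under 10, which is the authors' mean normalized count over the libraries of a fit. It was 0.269 at base means of 10 to 100, 0.109 at 100 to 1000 and 0.0711 above 1000. A change of 1 was thus about as large as its error in the first class and many times its error in the last. The median over all genes was -0.01.

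**Figure D1:**
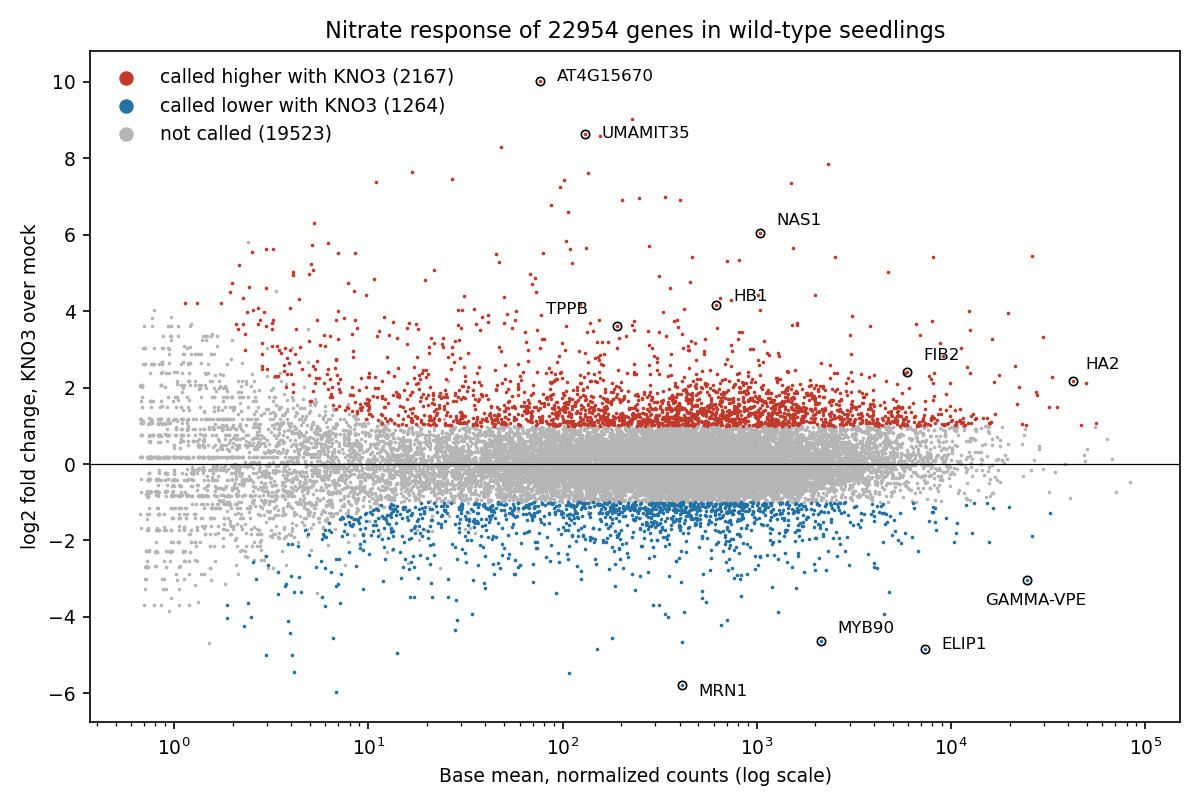
Each point is 1 of 22954 genes, with the authors' base mean in normalized counts on a log axis against the log2 fold change, KNO3 over mock. Red points are the 2167 genes called higher and blue points the 1264 called lower, and the circled genes are described in the text. The largest changes above 0 reach 10.02 (AT4G15670), and MRN1 stands at -5.80.

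The most uniform increase was in the machinery that makes ribosomes. Ribosome assembly starts in the nucleolus, where ribosomal RNA is transcribed, cut and chemically modified with the help of small nucleolar RNAs, and where ribosomal proteins are added. In plants many of these genes carry the telo-box and site II elements near their start. The promoter windows of 3 of the 4 ribosome biogenesis genes with the largest rises are shown here because they hold these motifs in different arrangements. They are from the RefSeq TAIR10.1 genome, 250 bases before to 50 bases after the annotated gene start, 5′ to 3′ on the gene's strand. Capitals mark the telo-box AAACCCTA and the site II motifs TGGGCC or TGGGCT, either strand.
FIB2, chr4:13073840-13074139, + strand: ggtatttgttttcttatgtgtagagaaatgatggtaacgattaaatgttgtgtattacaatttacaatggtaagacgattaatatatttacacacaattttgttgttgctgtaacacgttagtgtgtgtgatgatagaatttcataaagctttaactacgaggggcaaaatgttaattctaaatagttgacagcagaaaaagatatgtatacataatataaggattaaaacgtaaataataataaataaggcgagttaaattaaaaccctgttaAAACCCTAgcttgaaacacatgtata
SWA1, chr2:19638629-19638928, - strand: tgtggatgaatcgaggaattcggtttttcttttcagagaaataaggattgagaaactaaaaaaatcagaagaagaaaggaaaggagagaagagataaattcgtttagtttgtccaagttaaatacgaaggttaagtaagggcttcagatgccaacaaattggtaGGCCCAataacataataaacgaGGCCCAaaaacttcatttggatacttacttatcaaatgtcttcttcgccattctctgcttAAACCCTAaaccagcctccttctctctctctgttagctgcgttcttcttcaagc
AT5G27120, chr5:9540611-9540910, + strand: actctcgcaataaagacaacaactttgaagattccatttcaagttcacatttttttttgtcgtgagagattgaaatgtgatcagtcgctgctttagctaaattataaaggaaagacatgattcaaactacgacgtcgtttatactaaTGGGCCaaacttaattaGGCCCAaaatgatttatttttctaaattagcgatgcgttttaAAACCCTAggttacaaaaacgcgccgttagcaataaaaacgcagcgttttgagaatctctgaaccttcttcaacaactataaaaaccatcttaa

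FIB2, a fibrillarin that methylates ribosomal RNA as part of small nucleolar ribonucleoproteins, rose by 2.41 ± 0.08, or 5.31-fold. Its telo-box began 24 bases after the start, and its window held no site II motif. SWA1, a WD-40 protein of the nucleolus needed for processing of 18S ribosomal RNA, rose by 2.24 ± 0.08. Its telo-box began 4 bases before the start, with site II motifs 86 and 64 bases before it. NUC-L2, a nucleolin, rose by 2.18 ± 0.12, and AT5G27120, a NOP56-like protein, rose by 2.11 ± 0.08. The AT5G27120 window held a telo-box 44 bases before the start behind site II motifs at 103 and 86 bases.

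Over the whole ribosome biogenesis list 29 of 31 members rose and none fell, with a median of 1.64, against 9.44% of all genes that rose. The members that were not called were MTR4, an RNA helicase of the exosome pathway, at 0.88 ± 0.09, and AT4G31420, a zinc finger protein, at -0.27 ± 0.07. Of 338 nuclear genes annotated as ribosomal proteins 320 were listed, of which 142 rose and 2 fell, with a median of 0.97. The most abundant of those not called, AT5G20290 (ribosomal protein S8e) and AT3G09200 (ribosomal protein L10), stood at 0.92 ± 0.07 and 0.97 ± 0.07, just under the 2-fold line. The largest rise was that of AT5G40040, a 60S acidic ribosomal protein, at 4.43 ± 0.93 on a base mean of 9.76. Larger rises on better counted transcripts included AT3G09680 (ribosomal protein S12/S23) at 2.68 ± 0.22 and AT5G59240 (ribosomal protein S8e) at 2.36 ± 0.14. The falls were those of AT5G02440, annotated as L36, at -1.73 ± 0.19, and of AT1G58684 (S5) at -2.98 ± 1.29, which rests on a base mean of 14.7. Ribosomal protein genes have close paralogs, and reads shared between them could have been split or lost in the authors' counting.

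The telo-box was found in 51.6% of the ribosome biogenesis windows and in 37.5% of the ribosomal protein windows, against 6.22% of 27443 windows of annotated genes. For site II these shares were 77.4% and 65.9%, against 21.7%. Among all genes that rose 14.7% held a telo-box, ribosomal genes included, and among all that fell 2.33% did. The G-box CACGTG ran the other way, in 6.05% of the genes that rose and 13.6% of those that fell, against 7.68% of all windows. Counted in the 250 bases before the start only, telo-box shares were 16.1% for ribosome biogenesis, 15.9% for ribosomal proteins and 4.49% for all windows, so in both lists many telo-boxes lay at or after the start. These shares are descriptions and show no binding, and a window without a motif lacks only these letters.

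**Figure D2:**
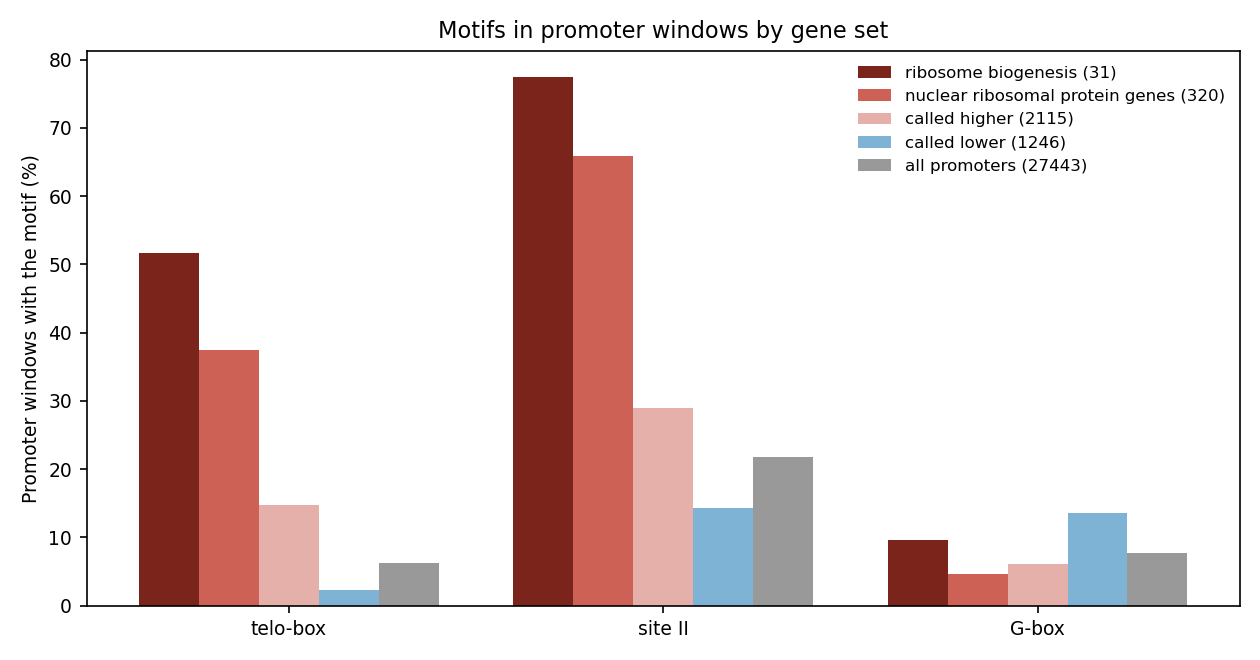
Bars give the share of promoter windows (in percent, from 0) that hold the telo-box, the site II motif or the G-box on either strand, for ribosome biogenesis genes, nuclear ribosomal protein genes, all genes called higher, all called lower, and all annotated promoters. The telo-box and site II bars are tallest for the 2 ribosomal lists (51.6% and 77.4% for ribosome biogenesis), and the G-box bar is tallest for genes called lower (13.6%).

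Other steps of growth differed among themselves. Of nucleotide synthesis genes 10 of 17 rose and none fell, with a median of 1.08. ASE2, the amidotransferase that commits to purine synthesis, rose by 2.46 ± 0.07, its paralog ASE3 was at 3.62 ± 1.49 on a base mean of 2.97, and PUR5, which closes the imidazole ring of purines, rose by 1.82 ± 0.06. The UMP synthase AT3G54470, which completes pyrimidine synthesis, rose by 1.32 ± 0.05. Translation factors rose in 12 of 67, among them LSP1, a cap-binding eIF4E protein, by 1.64 ± 0.06, while the abundant EIF4A1 was at 0.94 ± 0.06 and not called. Of 50 aminoacyl-tRNA synthetases 1 rose and 2 fell, with a median of 0.45, and 36 were above 0 with an adjusted p-value under 0.05 at any fold. Of 44 histones 1 rose, AT3G53650 at 1.00 ± 0.15. Of 18 genes of DNA replication and cyclins the D-type cyclin CYCD2;1 alone rose, at 1.00 ± 0.08, while CYCD3;1 was at 0.24 ± 0.07. None of 14 endoplasmic reticulum chaperones was called, and their median was 0.22.

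Small nucleolar RNAs also rose. They guide methylation and pseudouridylation of ribosomal RNA. Of 55 listed snoRNA genes 22 rose and none fell, with a median of 1.44. SNOR77 rose by 2.55 ± 0.32 and AT2G05765 by 2.38 ± 0.21. Neighbouring loci moved together, with AT2G20721, AT2G20722 and AT2G20723 at 2.02 ± 0.32, 1.36 ± 0.34 and 1.40 ± 0.37. Of the 22 genes, 1 overlapped another annotated gene. The noncoding classes and the genes named from them were chosen after their values were seen. How evenly mRNA libraries recover such short RNAs was not tested.

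Among genes that salvage nitrogen from proteins, chlorophyll, purines and amino acids all calls in the 4 lists given here were falls, in shares that differed by list. In leaves that run short of nitrogen, vacuolar proteases, chlorophyll breakdown and amino acid oxidation free nitrogen for export. Of 13 genes of senescence and chlorophyll breakdown 10 fell and none rose, with a median of -1.49, against 5.51% of all genes that fell. GAMMA-VPE, a vacuolar processing protease, fell by 3.02 ± 0.08, or to 0.123 of the mock level. NAP, a NAC factor that promotes leaf senescence, changed by -2.33 ± 0.24, and RD21A, a papain-like protease with a granulin repeat, by -2.04 ± 0.07. PPH, the pheophytinase of chlorophyll breakdown, changed by -1.84 ± 0.07. The chlorophyll b reductase NYC1 was at -0.50 ± 0.06 and the senescence factor WRKY53 at 0.32 ± 0.10, neither called.

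The breakdown of purines through ureides fell in 6 of 9 members, and all 9 estimates were below 0 (median -1.17). The step from allantoin on changed most, with ALN, allantoinase, at -2.69 ± 0.08, and AAH, allantoate amidohydrolase, at -1.75 ± 0.09. The ureide permease UPS1 was at -1.54 ± 0.15, and XDH1, xanthine dehydrogenase at the head of the pathway, at -1.17 ± 0.08. Uricase (AT2G26230) was at -0.34 ± 0.07 and the urea transporter DUR3 at -0.86 ± 0.07, not called. The lists of purine and pyrimidine synthesis and of ureide and purine breakdown thus had medians on opposite sides of 0 in the same libraries.

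Of 24 genes of amino acid catabolism 6 fell and none rose (median -0.55). GDH3, a glutamate dehydrogenase, was at -2.90 ± 0.10, and BCAT-2, a branched-chain aminotransferase, at -2.72 ± 0.10. PDS1, the 4-hydroxyphenylpyruvate dioxygenase of tyrosine breakdown, was at -2.38 ± 0.07, and ERD5, a proline dehydrogenase, at -2.29 ± 0.06. The glutamate decarboxylases GAD and GAD2 stayed at -0.04 ± 0.07 and 0.08 ± 0.05. All 17 autophagy genes had estimates below 0, with a median of -0.72, but only ATG8F (-1.31 ± 0.08) and ATG8C (-1.10 ± 0.08), ubiquitin-like proteins of the autophagosome membrane, passed the 2-fold line. NBR1, a cargo receptor of autophagy, was at -0.24 ± 0.05.

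Amino acid carriers split. The importers AAP2, AAP4 and AAP6 fell, with AAP2 at -1.80 ± 0.06, while AAP3 rose by 1.67 ± 0.07. GDU1, a small membrane protein whose overexpression makes plants secrete glutamine, rose by 3.59 ± 0.14. Among 42 listed UMAMIT genes, many of which encode amino acid exporters, 5 rose and 10 fell. UMAMIT36 rose by 5.41 ± 0.18 and UMAMIT35 by 8.64 ± 1.03, a fitted estimate whose mock level cannot be read here. UMAMIT20 (-2.08 ± 0.11) and UMAMIT10 (-1.76 ± 0.09) fell. Of 29 amino acid synthesis genes 6 rose and none fell. TSB1, the beta subunit of tryptophan synthase, rose by 1.48 ± 0.08, and the aspartate family enzymes AK-HSDH I and DHDPS2 by 1.23 ± 0.06 and 1.19 ± 0.07.

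**Figure D3:**
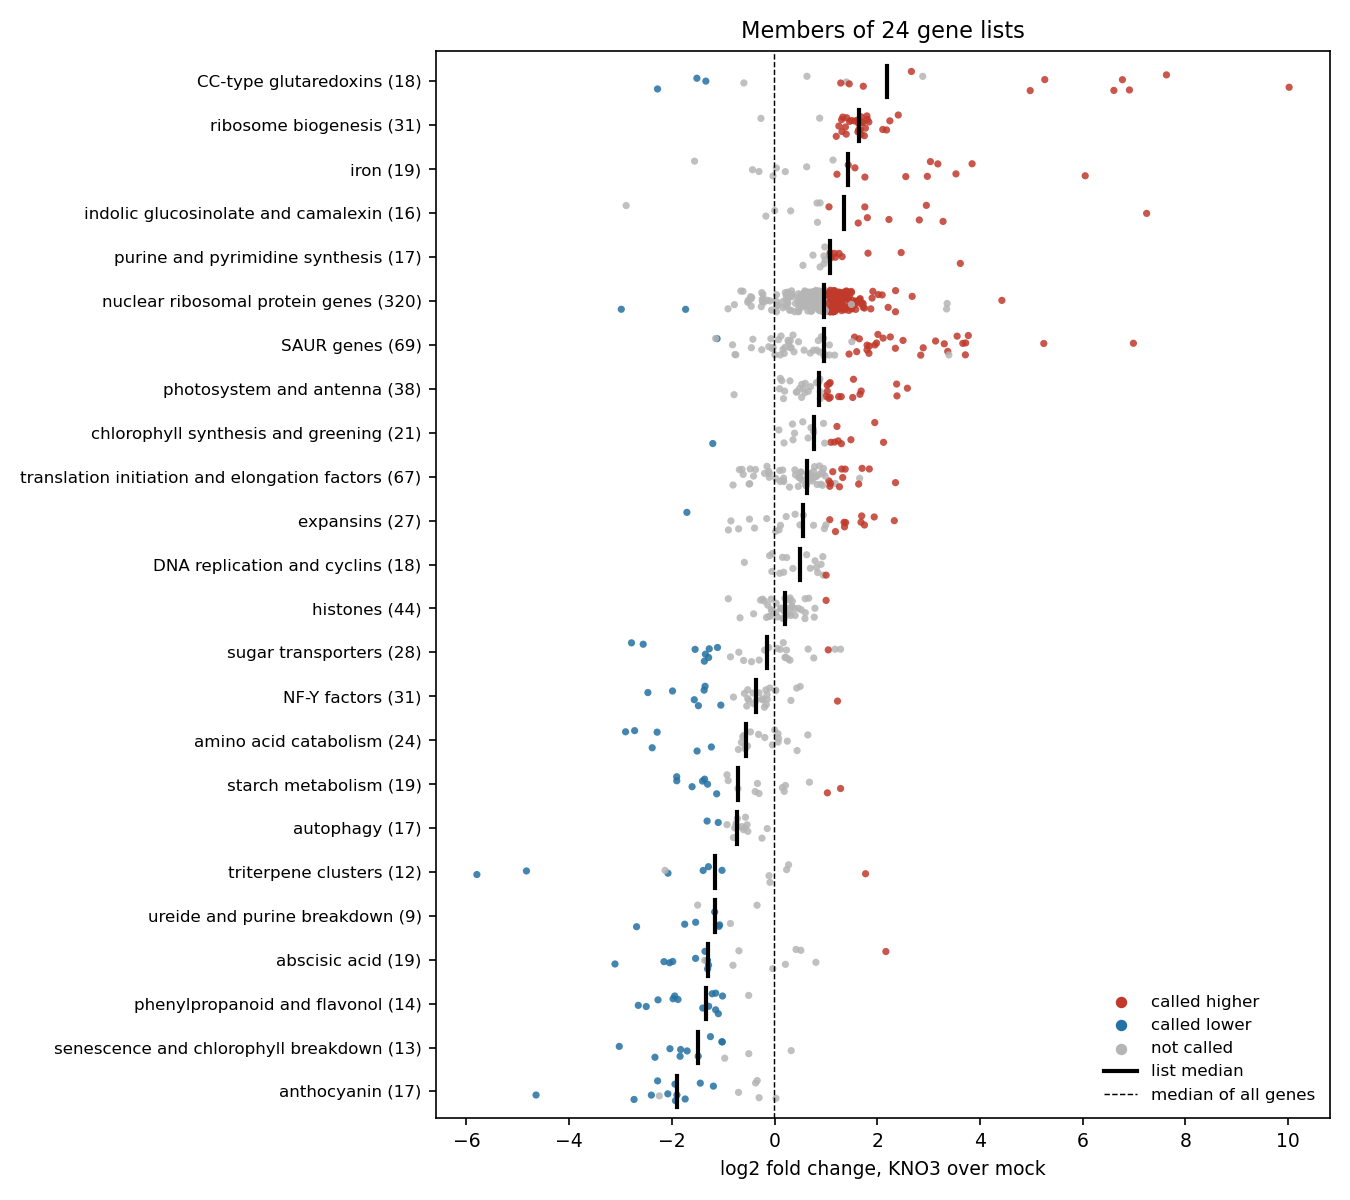
Each point is 1 listed gene of 24 gene lists, placed by its log2 fold change, KNO3 over mock, with list sizes in brackets. Red points were called higher, blue points called lower and grey points not called, the thick bar is the list median and the dashed line the median of all genes. Ribosome biogenesis sits in a narrow band around 1.64, senescence, phenylpropanoid and anthocyanin lists lie mostly below -1, and the CC-type glutaredoxins spread from -2.28 to 10.02.

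Carbon metabolism changed at a few enzymes and not across whole pathways. Nitrogen assimilation draws on organic acids as carbon skeletons, and genes of their supply rose. PPC2, a phosphoenolpyruvate carboxylase, rose by 2.32 ± 0.07, and DiT1, the plastid carrier that exchanges 2-oxoglutarate for malate, by 2.37 ± 0.06. The aconitase gene AT4G26970 rose by 2.02 ± 0.05 and FUM2, the cytosolic fumarase, by 2.04 ± 0.13. ACO3, the other abundant aconitase, was at 0.03 ± 0.05. Outside the list, the pyruvate kinase AT2G36580 rose by 2.54 ± 0.05 and the transaldolase TRA2 by 2.56 ± 0.05. NADP-ME1, a malic enzyme that consumes malate, fell by 2.14 ± 0.15. Over the 33 genes of glycolysis and organic acid synthesis 7 rose and 1 fell, with a median of 0.03.

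Starch and sugar export genes held many falls. Of 19 starch genes 7 fell and 2 rose, with a median of -0.71, against 5.51% of all genes that fell. GBSS1, the granule-bound synthase of amylose, was at -1.91 ± 0.09, and the beta-amylase gene AT3G23920 at -1.90 ± 0.07, so genes of synthesis and of breakdown fell alike. APL4, a large subunit of ADP-glucose pyrophosphorylase, was at -1.61 ± 0.10, whereas its paralog APL1 rose by 1.29 ± 0.14. DPE2, which metabolises maltose in the cytosol, was at -1.40 ± 0.06. Of 28 sugar transporters 8 fell and 1 rose. The sucrose exporters SWEET13 (-2.79 ± 0.08), SWEET14 (-2.56 ± 0.10) and SWEET12 (-1.55 ± 0.14) fell, and SWEET17, a vacuolar fructose facilitator, rose by 1.05 ± 0.07. The sucrose importer SUC1 was at 0.26 ± 0.09.

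Enzymes of trehalose 6-phosphate, a sugar signal, moved in both directions. Among phosphatases TPPB rose by 3.60 ± 0.19 and ATTPPA by 1.37 ± 0.08, while TPPI (-1.69 ± 0.13) and TPPD (-1.16 ± 0.12) fell. Among class II synthase-like proteins TPS9 rose by 1.69 ± 0.11 and TPS5 fell by 1.28 ± 0.06, whereas the catalytic synthase TPS1 was at 0.33 ± 0.07. Of 9 listed genes known as markers of darkness or sugar starvation 4 rose and none fell. The members that rose were ASN1, an asparagine synthase (3.52 ± 0.55), DIN10, a raffinose synthase family gene (1.86 ± 0.08), PHI-1 (1.44 ± 0.11) and the bZIP gene BZO2H3 (1.08 ± 0.16). ASN1 also belongs to nitrogen metabolism.

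Flavonoid synthesis fell from its entry to its decorated end products. Plants short of nitrogen commonly accumulate anthocyanins, and PAP1 and PAP2 are the MYB activators of their synthesis. Of 14 phenylpropanoid and flavonol genes 13 fell and none rose (median -1.34), and of 17 anthocyanin genes 11 fell and none rose (median -1.90). MYB90 (PAP2) fell by 4.64 ± 0.10, or to 0.0400 of the mock level, and AT1G56650 (PAP1) by 2.74 ± 0.10. The enzymes TT7, flavonoid 3'-hydroxylase, and F3H, flavanone 3-hydroxylase, were at -2.65 ± 0.10 and -2.50 ± 0.23. LDOX, which makes anthocyanidins, was at -2.28 ± 0.16, and the glycosyltransferase gene UF3GT at -2.40 ± 0.10. MYB11, an activator of flavonol synthesis, was at -2.27 ± 0.16, and TT8, the bHLH partner of the MYB factors, at -1.90 ± 0.11. The exceptions among abundant members were C4H, the cinnamate hydroxylase that lignin also needs, at -0.50 ± 0.06, and TTG1 and EGL3, which also act in epidermal patterning, at -0.34 ± 0.09 and 0.03 ± 0.14.

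Genes of indole-derived defence metabolism went the other way in this comparison. Of 16 genes of indolic glucosinolates and camalexin 9 rose and none fell (median 1.34). CYP71A12, a P450 of indole defence metabolism, rose by 2.82 ± 0.12, or 7.05-fold. The berberine-bridge-like oxidase genes AT1G26410 and AT1G26390 rose by 3.28 ± 0.34 and 2.95 ± 0.29, and CYP82C2 by 7.24 ± 1.20. CYP79B2, the entry enzyme from tryptophan, was at 0.89 ± 0.06 and not called. The same genes had other values in the other nitrate contrasts. CYP71A12 stood at -1.13 in hbi-q, -0.15 in nlp7-1 and -1.98 with H2O2, and AT1G26390 at -2.15, -1.23 and -3.72. CYP82C2 was at 1.98 in hbi-q, 2.02 in nlp7-1 and -2.06 with H2O2. These values are given side by side, the differences from the mutants were not tested, and whether 1 library carries the rises in wild type was not tested. Aliphatic glucosinolate genes rose in 3 of 17 and fell in none, led by their activator MYB29 (1.37 ± 0.18).

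Triterpene genes included some of the largest falls. MRN1, marneral synthase, was at -5.80 ± 0.33, and its neighbours CYP71A16 and CYP705A12, P450s of the same cluster on chromosome 5, at -1.39 ± 0.11 and -2.08 ± 0.12. A second group on that chromosome fell together, with the triterpene synthase AT5G36150 at -4.83 ± 0.43, CYP716A2 at -4.08 ± 0.17 and AT5G36130 at -4.00 ± 0.22. CYP705A5 and CYP708A2 of the thalianol cluster were at -0.09 ± 0.09 and 0.23 ± 0.07. BARS1, baruol synthase, rose by 1.77 ± 0.31, in the opposite direction. In total 6 of 12 listed members fell and 1 rose.

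Genes of abscisic acid (ABA), the hormone of water deficit, mostly fell. Of 19 members 10 fell and 1 rose (median -1.30). NCED3, the rate-limiting enzyme of ABA synthesis under stress, was at -2.15 ± 0.19, while CYP707A2, which inactivates ABA, rose by 2.17 ± 0.12. The ABA-induced phosphatases HAI2 and HAI1 were at -3.11 ± 0.35 and -1.98 ± 0.31, and the dehydrin AT5G66400 (RAB18) at -2.04 ± 0.16. LTI78, a cold and drought marker with the highest base mean among members not called, was at -0.03 ± 0.09. The ABA-responsive homeobox genes HB-12 and AT2G46680 (homeobox 7) fell by 2.49 ± 0.15 and 1.60 ± 0.10.

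Among auxin-related genes the most calls were in SAUR genes, which encode small proteins that promote cell expansion. Of 69 listed SAUR genes 27 rose and 1 fell, with a median of 0.96. AT2G21210 rose by 6.99 ± 0.38 and AT4G38840 by 3.77 ± 0.15. The single fall was AT3G61900 at -1.12 ± 0.26. Only 17 of the 69 had a base mean of 100 or more, so many of their estimates carry wide errors. Of 28 genes of auxin synthesis, transport and perception 2 rose, the tryptophan aminotransferase TAR2 by 2.71 ± 0.11 and the endoplasmic reticulum carrier PIN5 by 1.33 ± 0.20. The root carriers AUX1 and PIN7 were at 0.11 ± 0.06 and -0.08 ± 0.06. Among Aux/IAA repressors IAA11 (-1.63 ± 0.09) and IAA28 (-1.19 ± 0.08) fell and IAA5 rose by 2.81 ± 0.57. The conjugating enzyme WES1 fell by 1.62 ± 0.07 and its relative DFL2 rose by 1.68 ± 0.07.

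Of 14 gibberellin genes 2 rose and 4 fell, with a median of 0.01. GA3OX1, the last step to active gibberellin, rose by 2.47 ± 0.12 and GA20OX1 by 1.24 ± 0.25. The inactivating oxidases GA2OX2 (-1.50 ± 0.13), GA2OX4 (-2.34 ± 0.58) and GA2OX8 (-1.06 ± 0.28) fell, as did the receptor GID1B (-1.53 ± 0.07). The other 8 were not called, and the receptor GID1A was at 0.06 ± 0.08. In the ethylene pathway the ACC synthase genes ACS8 and ACS4 rose, ACS8 by 1.65 ± 0.32 and ACS4 by 5.07 ± 1.31 on a base mean of 5.16. ACC oxidases differed, with AT2G19590 (ACC oxidase 1) at 1.48 ± 0.11, EFE at -1.55 ± 0.08 and AT1G62380 (ACC oxidase 2) at -0.13 ± 0.07. The strigolactone synthesis gene CCD8 fell by 2.41 ± 0.18, and LBO1, which acts late in the same pathway, by 2.61 ± 0.07. D27, which acts first, rose by 1.06 ± 0.40. BRI1, the brassinosteroid receptor, was at -0.22 ± 0.08, and of 9 brassinosteroid genes CYP90D1 alone was called, at 1.00 ± 0.08.

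CC-type glutaredoxins, small plant-specific redox proteins that bind TGA factors, held the largest single change. Of 18 listed members 11 rose and 3 fell. A run of 5 genes on chromosome 4 (build TAIR10.1, position 8925571 to 8938124, all on the + strand, with gaps of 1803 to 2520 bases between genes) rose together. Their changes in order along the chromosome were 4.98 ± 0.42 for AT4G15660, 10.02 ± 1.19 for AT4G15670, 7.63 ± 0.66 for AT4G15680, 6.77 ± 0.61 for AT4G15690 and 6.61 ± 0.53 for AT4G15700. All of them were far above 0 relative to their errors. These copies are alike in sequence, so reads shared between them may have been counted unevenly, and the values are fitted estimates that give no fold against a known mock level.

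Position did not fix direction elsewhere in the family. On chromosome 3, AT3G62930 rose by 5.26 ± 0.38 while AT3G62960 fell by 2.28 ± 0.13, and AT3G62950, which lies between them, was at 1.40 ± 1.22 on a base mean of 2.65. On chromosome 2, AT2G47870 rose by 1.29 ± 0.48 and the adjacent AT2G47880 fell by 1.34 ± 0.09. AT5G18600 on chromosome 5 rose by 6.91 ± 0.45. GRX480, known from salicylic acid responses, was at -1.51 ± 0.12, ROXY2, a regulator of anther development, at 2.66 ± 0.38, and ROXY1, a regulator of petals, at 0.63 ± 0.33 (not called). TGA1, a bZIP factor that interacts with such glutaredoxins, rose by 2.07 ± 0.08, while TGA3 was at -0.68 ± 0.05.

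**Figure D4:**
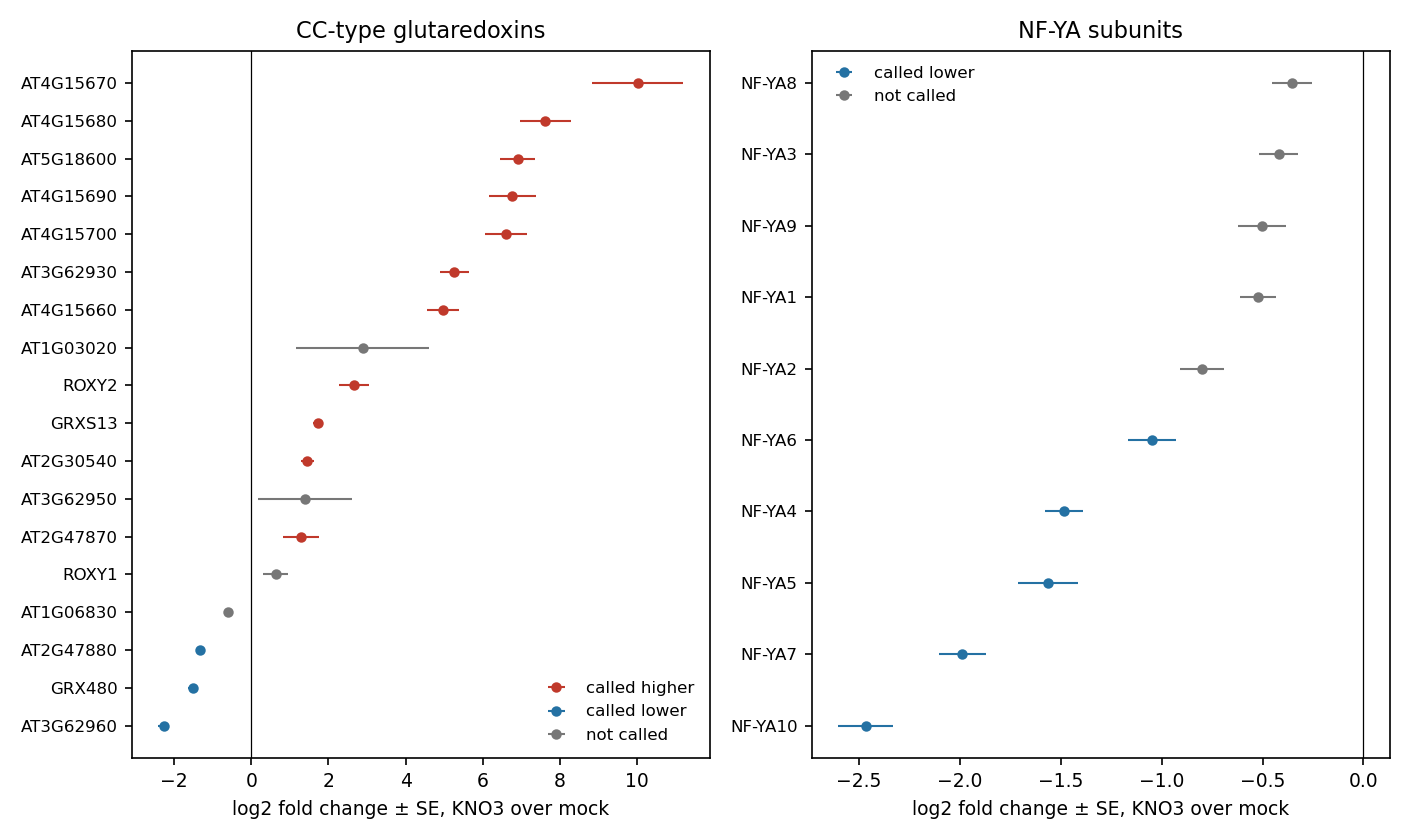
Points are log2 fold changes, KNO3 over mock, with bars of ± 1 SE from the authors' deposited table, for the 18 listed CC-type glutaredoxins (left) and the 10 NF-YA genes (right). Glutaredoxins range from -2.28 (AT3G62960) to 10.02 (AT4G15670), whereas every NF-YA gene lies below 0, from -0.35 (NF-YA8) to -2.47 (NF-YA10).

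The A subunits of the CCAAT-binding factor NF-Y all had lower estimates with KNO3. NF-Y binds DNA as a trimer of A, B and C subunits, and transcripts of most A subunits are targets of the microRNA miR169, which is known to decline in nitrogen starvation. This subset was chosen after its values were seen. All 10 NF-YA genes had estimates below 0 and an adjusted p-value under 0.05, with a median of -0.92, and 5 of them passed the 2-fold line. By contrast 7 of 11 NF-YB and 8 of 10 NF-YC genes were below 0, with medians of -0.17 and -0.18. Among these NF-YC13 rose by 1.23 ± 0.20. NF-YA10 fell most, at -2.47 ± 0.13, followed by NF-YA7 (-1.99 ± 0.11), NF-YA5 (-1.56 ± 0.15), NF-YA4 (-1.48 ± 0.09) and NF-YA6 (-1.05 ± 0.12).

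The microRNA and the best-matching 21 bases of 3 NF-YA transcripts are shown to compare how closely each gene can pair with it. Capitals in the microRNA mark the seed (bases 2 to 8), and capitals in the other sequences mark bases that differ from a perfect complement of miR169a. All are from RefSeq TAIR10.1, 5′ to 3′.
miR169a-5p, chr3:4359182-4359202, - strand: cAGCCAAGgaugacuugccga
NF-YA5, chr1:20217494-20217514, - strand: AcggGaagtcatccttggctA
NF-YA10, chr5:1986749-1986769, + strand: CAggcaaAtcatcTttggctC
NF-YA7, chr1:10804756-10804776, - strand: CTggTaaAtcCGccAtggctg

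NF-YA5 differed from the perfect complement at 3 bases, NF-YA10 at 5 and NF-YA7 at 7. NF-YA8, which also differed at 3, had the smallest change (-0.35 ± 0.10), and NF-YA4, whose best window differed at 9 bases and is no match by that measure, fell by 1.48 ± 0.09. These mismatches were counted against miR169a alone. Other members of the miR169 family differ from it in sequence, and mismatches to them were not counted. Whether miR169 bears on the changes was not tested. The MIR169a precursor was at 3.35 ± 1.00 on a base mean of 6.37, and AT3G13404, which overlaps it on the same strand, was at 3.85, so their reads cannot be told apart. The mature microRNA was not measured in these libraries.

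Other noncoding RNAs included microRNA precursors and long RNAs. Of 50 precursor genes 9 rose and none fell (median 0.43). MIR398a, whose product targets copper proteins, was at 3.31 ± 0.46, MIR775 at 2.91 ± 0.46 and MIR157c, of the family that targets SPL factors, at 2.22 ± 0.46. Of the 9, 3 overlapped another annotated gene. Among 140 genes annotated as ncRNA 11 rose and 12 fell, led by AT3G57157 at 5.64 ± 0.42 and AT3G02832 at 3.28 ± 0.26, while AT3G25795 fell by 2.21 ± 0.17. TAS1B, a source of trans-acting small RNAs, rose by 1.18 ± 0.14. All 9 called lncRNA genes overlapped a gene on the opposite strand, and with strand handling unstated no direction is drawn from them.

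Peptide hormones of the CLE family rose in 5 of 27 listed members and fell in 1. CLE2 rose by 4.51 ± 0.40, and CLE4 and CLE7 were at 7.63 ± 1.22 and 5.79 ± 1.30 on base means of 16.8 and 6.23. CLE26 was at -1.10 ± 0.20, and CLE41, a vascular signal, was at 0.10 ± 0.09. HB1, the phytoglobin that scavenges nitric oxide, rose by 4.16 ± 0.12 (17.9-fold) and HB2 by 1.44 ± 0.10, whereas GLB3 was at -0.06 ± 0.11. MDAR6, a monodehydroascorbate reductase, rose by 3.16 ± 0.05.

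Genes that loosen walls and drive expansion rose in part. Of 27 listed expansins 10 rose and 1 fell (median 0.56), with EXPA1 at 2.33 ± 0.08, EXP3 at 1.94 ± 0.10 and EXPA15 at 1.75 ± 0.09. Of 29 xyloglucan endotransglucosylases 7 rose and 2 fell. XTH20 rose by 2.04 ± 0.08, while XTH24 fell by 1.25 ± 0.09. HA2, the main proton pump of the root plasma membrane, rose by 2.17 ± 0.07, or 4.49-fold, and HA7 by 1.34 ± 0.10, whereas its close relative HA1 was at 0.47 ± 0.06. Among 31 aquaporins 5 rose and 1 fell, with RD28 at 2.11 ± 0.23 and DELTA-TIP at 1.31 ± 0.10. As a family they were balanced, with a median of -0.13 and a range from -1.36 to 2.11. At any fold 9 were higher and 8 lower with an adjusted p-value under 0.05 in the authors' test. Suberin genes fell in 5 of 14, such as the fatty acyl reductases FAR4 (-1.91 ± 0.11) and AT5G22500 (-1.23 ± 0.09), while CYP86A1 (0.06 ± 0.08) and CASP1 (-0.06 ± 0.12) were not called.

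Ion transport changed at single genes in most groups given here, and more widely among iron genes. SKOR, the channel that loads potassium into the xylem, rose by 3.45 ± 0.23, and SLAH2, an anion channel that carries nitrate, by 1.70 ± 0.15. CLC-A, the nitrate-proton exchanger of the vacuole, rose by 1.49 ± 0.10 and CLC-B by 2.29 ± 0.07, while CLC-C fell by 1.25 ± 0.08. KAT1 (-1.66 ± 0.10) and OZS1 (SLAC1, -1.96 ± 0.16), channels known from guard cells, fell. The sulphate transporter SULTR3;5 rose by 5.71 ± 0.23, the calcium pump AT2G41560 (ACA4) by 3.88 ± 0.08, and the zinc transporter ZIP3 by 1.62 ± 0.08. BOR5, of the borate exporter family, fell by 3.34 ± 0.09. NAS1, which makes the metal chelator nicotianamine, rose by 6.05 ± 0.16. Of 19 listed iron genes 11 rose and none fell (median 1.43), against 9.44% of all genes that rose. Among the 10 iron genes with a base mean of 100 or more, 5 rose. In a list of 14 named genes of the NRT1/PTR transporter family, NRT1.1 rose by 1.25 ± 0.07 and PTR1 fell by 1.18 ± 0.07. The others in that list were not called, and family members outside it were not counted.

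Calls among calcium signalling genes differed by list, against 9.44% of all genes that rose and 5.51% that fell. CIPK3, a kinase that CBL calcium sensors activate, rose by 2.24 ± 0.08, CBL9 by 1.28 ± 0.09 and CIPK21 by 1.21 ± 0.08. Of 35 listed CIPK and CBL genes 6 rose (17.1%) and 1 fell (2.86%). Of 32 calcium-dependent protein kinases 2 rose (6.25%) and 1 fell (3.1%), both below the shares of all genes. None of these called kinases had a base mean of 100 or more. Of 18 calmodulin-like genes 4 fell (22.2%) and none rose, with CML38 at -2.20 ± 0.14 and CML41 at -1.74 ± 0.09.

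Genes of the photosynthetic plastid also rose. Of 38 photosystem and antenna genes 16 rose and none fell (median 0.87). RBCS1B and RBCS2B, small subunits of Rubisco, were at 2.59 ± 0.22 and 2.38 ± 0.17, and PSBO2 at 1.69 ± 0.10. The most abundant antenna gene, CAB1, was at 0.89 ± 0.11. RBCS and CAB copies are near-identical, so values of single copies are uncertain. Of 21 genes of chlorophyll synthesis and greening 8 rose and 1 fell. CGA1, a GATA factor of greening, rose by 2.12 ± 0.10, PORB, which reduces protochlorophyllide, by 1.95 ± 0.11, and CHLI1 of the magnesium chelatase by 1.49 ± 0.08. HY5, the light signalling bZIP factor, fell by 1.20 ± 0.10, and ELIP1, an early light-induced protein, fell by 4.83 ± 0.09, to 0.0352 of the mock level. Glycerate kinase (AT1G80380) and the glutamate:glyoxylate aminotransferase (AT1G23310) of photorespiration rose by 1.56 ± 0.08 and 1.44 ± 0.06, while GLDP1 of glycine decarboxylase was at -0.62 ± 0.05.

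Markers of tissues were also read in these whole seedlings. All 6 shoot markers were above 0, from 0.53 (PSAF and LHCB2.2) to 2.38 (CAB2). They are photosynthesis genes of the same kind as the plastid genes above, so they repeat that result. Root hair markers ranged from 0.04 (SHV2) to 1.19 (EXPA7), endodermis markers from -0.45 (MYB36) to 0.14 (SCR), and stele markers from -0.18 (SHR) to 0.64 (WOL). The floral marker AP1 was not listed. Seed markers CRU3 and OLEO1 had base means of 89.1 and 178 with SEs of 2.15 and 1.30, far wider than the median SE at such levels. The part of the balance of shoot and root in the plastid results was not tested, and these shoot markers cannot separate the 2.

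Transcription factor families had few calls in either direction or calls in both, with single strong members. WRKY genes rose in 2 and fell in 4 of 62, and bHLH genes in 9 and 6 of 119. None of the 25 genes in the DOF list was called, but that list leaves out AT5G62430, cycling DOF factor 1, which rose (below). NAC genes fell in 12 of 85 and MYB genes in 16 of 109, against 5.51% of all genes. The NAC gene AT3G15500 was at -2.68 ± 0.20, NAC032 at -1.93 ± 0.11, and MYB112 at -3.09 ± 0.27. Of 90 listed AP2/ERF genes 16 rose and 11 fell, with a median of -0.15. Among those that rose were AT2G22200 at 5.83 ± 0.46, SNZ, a repressor of flowering, at 3.36 ± 0.19 and CRF11, of the cytokinin response factor group, at 2.24 ± 0.07, and among those that fell AT1G01250 at -2.50 ± 0.29 and ERF11 at -1.67 ± 0.16. The bZIP gene annotated as basic leucine-zipper 8 (AT1G68880) was at 8.60 ± 0.84. Further members with large changes were the GRAS gene AT5G19970 (3.49 ± 0.23), the TCP gene AT1G35560 (2.23 ± 0.09) and WOX11, which directs root founder cells, at -3.92 ± 0.43. Clock genes were not called except RVE2 (1.96 ± 0.11) and AT5G62430, cycling DOF factor 1 (1.94 ± 0.18), while GI was at -0.31 ± 0.07.

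Genes at the extremes included several that the annotation leaves uncharacterized. AT1G68238, annotated as an uncharacterized protein, was at 9.02 ± 0.84 and AT3G46880, likewise uncharacterized, at 7.42 ± 0.85. AT2G48080, annotated as an oxidoreductase of the 2OG-Fe(II) oxygenase family, rose by 7.35 ± 0.22 on a base mean of 1493. Among the falls, AT2G25625 was at -4.67 ± 0.17, NUDT24, a nudix hydrolase, at -4.55 ± 0.26, and AT1G34060, a pyridoxal phosphate enzyme, at -4.22 ± 0.14. The glutamine synthetase GLN1;4 fell by 2.73 ± 0.06, AT1G54130, RELA/SPOT homolog 3, by 2.59 ± 0.07, the CCT-motif gene AT5G53420 by 2.69 ± 0.06 and SPD1 by 3.25 ± 0.10. AT3G59580, of the same RWP-RK family as NLP7, fell by 3.93 ± 0.18.

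The other nitrate contrasts in the series show how widely these calls recurred. Of the 2167 genes that rose in wild type, 1768 (81.6% of them, and 76.4% of the genes called in hbi-q) were called higher in hbi-q, where 10.1% of all genes were higher and 6.06% lower. In nlp7-1, where 9.03% were higher and 6.63% lower, the shared genes numbered 1259 (58.1% of those in wild type and 61.7% of those in nlp7-1). For genes that fell, 885 (70.0% and 63.7%) were shared with hbi-q and 719 (56.9% and 48.0%) with nlp7-1. The wild-type and hbi-q tables have equal base means, as a joint fit gives, and the nlp7-1 table comes from another fit, so these shares do not rank the mutants. FIB2 stood at 2.41 in wild type, 2.48 in hbi-q and 1.78 in nlp7-1, and GAMMA-VPE at -3.02, -3.39 and -3.19. Differences in HA2 (2.17, 1.93 and 0.64) and CML38 (-2.20, -1.43 and 0.33) were not tested here.

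The most like comparison within wild type is KNO3 over mock when both sides also received H2O2, and the difference between these responses was tested per gene. By the labels no library is shared. Among the 22204 genes that both contrasts list, 5509 (24.8%) differed at an adjusted p-value under 0.05, 2975 (13.4%) with the response without H2O2 above that with it and 2534 (11.4%) below. The test ratio varied 1.97 times as widely as its errors imply. Scaled for this, 549 genes lay above and 274 below, and with a minimum difference of 1 it was 771 and 435, so the balance of directions depends on the scaling. With H2O2 present on both sides 6.54% of genes were called higher and 4.14% lower. The 2130 genes that rose without H2O2 and were in both tables had a median of 1.44 without and 1.05 with H2O2, and 909 of them differed upward, against 43 downward. For the 1261 that fell the medians were -1.39 without and -0.86 with H2O2. Called in both were 1067 genes that rose (49.2% of those without and 73.2% of those with H2O2) and 491 that fell (38.8% and 53.1%). The genes were selected for a large change without H2O2, so a smaller median with it is partly given by the choice.

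By process the difference was uneven. Ribosome biogenesis had a median of 1.64 in both contrasts, and 2 of 31 genes differed (0 after scaling). Senescence genes were at -1.49 without and -1.39 with H2O2, and autophagy genes at -0.72 and -0.74. In contrast, 36 of 38 photosystem genes differed, all with the response without H2O2 above (23 after scaling), with medians of 0.87 without and -0.22 with H2O2. Indolic and camalexin genes differed in 12 of 15 (10 after scaling), with medians of 1.63 and -0.44. Triterpene genes differed in 11 of 12, 10 of them below (8 after scaling), with medians of -1.16 and 0.56. Phenylpropanoid genes kept a median below 0 in both, at -1.34 without and -0.75 with H2O2, and 12 of 14 differed (6 after scaling).

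Single genes changed sign between the contrasts. CYP71A12 was at 2.82 ± 0.12 without and -1.98 ± 0.09 with H2O2, a difference of 4.80 ± 0.15 (adjusted p = 1.18e-213, normal test of the difference of DESeq2 estimates). The peroxidase gene AT3G03670 was at 2.73 ± 0.12 and -2.25 ± 0.18. MRN1 was at -5.80 ± 0.33 without and 2.27 ± 0.21 with H2O2, and AT1G14960, a polyketide cyclase family gene, at -3.31 ± 0.13 and 1.85 ± 0.13. In GSTF14, a glutathione S-transferase, and WR3, a partner protein of nitrate transporters, the direction held and the size differed, at 5.42 ± 0.10 and 2.09 ± 0.12 for GSTF14 and 3.04 ± 0.07 and 1.09 ± 0.06 for WR3.

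**Figure D5:**
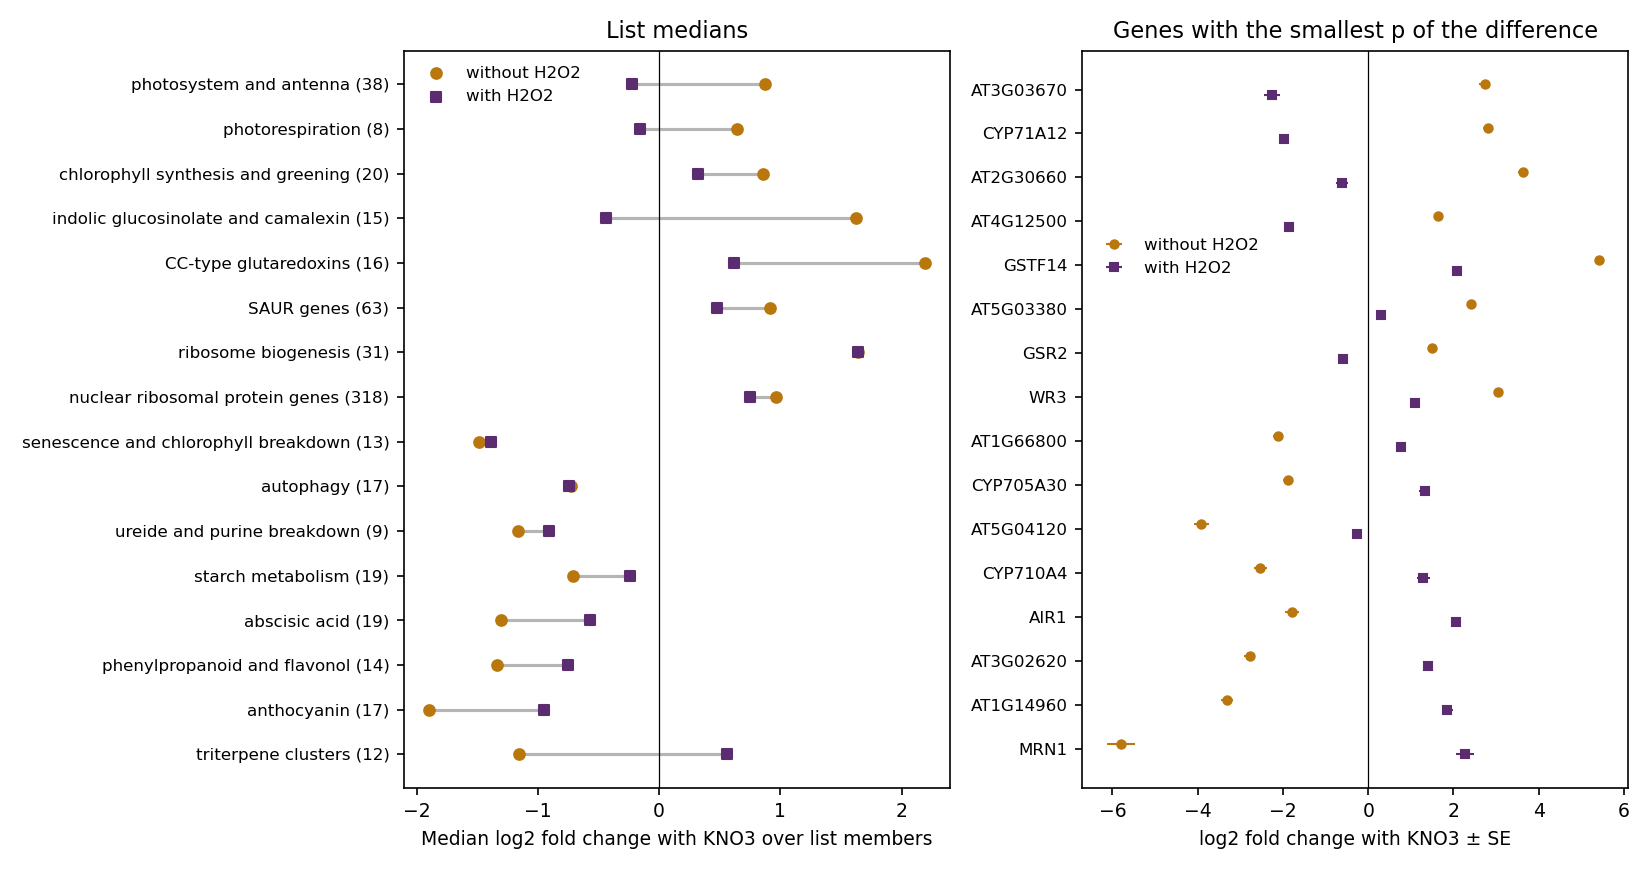
Left, medians of the log2 fold change with KNO3 over the members of 16 gene lists (number in both tables in brackets), without H2O2 (ochre circles) and with H2O2 on both sides (purple squares). Right, log2 fold changes ± SE of 16 genes, the 8 in each direction with the smallest p among those with a difference of at least 1. Ribosome biogenesis coincides at 1.64, while photosystem genes stand at 0.87 without and -0.22 with H2O2 and MRN1 at -5.80 without and 2.27 with H2O2.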

How the data were processed

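Messenger RNA of whole seedlings was read on the BGISEQ-500 platform (labels' protocols). Reads were mapped with HISAT and Bowtie2 to TAIR10, counted with HTSeq and tested with DESeq2, per the submitters' processing notes, with versions and strand settings unstated. The deposited tables hold results per gene and no value per library, so depth per library is unknown. Base means, the authors' normalized count signal, summed to 2.01e+07. The authors' log2 fold changes and standard errors, their Wald score (equal to the ratio of these when checked) and each p-value with its adjusted p-value are used as deposited, per the file headers. The authors' p-values set an estimated change against an error that DESeq2 fits from replicate libraries. Which libraries entered each fit is not stated. Count tests that need values per library were not run. An adjusted p-value of 0 is below the smallest number the files hold.

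Symbols were matched to RefSeq TAIR10.1 for 22915 of 22954 genes, and 39 did not match. Promoters and sites come from that genome, and the tables hold no coordinates. Gene lists and members were chosen with earlier results of these data known. Lists are described by counts and medians, with no set test. Genes named in the text are, per list, up to 4 called members a direction with the largest change and 2 abundant members not called. Over all genes they are the 15 a direction with the largest ratio of change to error, the 15 with the largest change at a base mean of at least 100, and 8 a direction for the difference. Genes named outside this rule were chosen after their values were seen. These include the other NF-YA genes, the remaining clustered glutaredoxins, ROXY2 and the noncoding genes. The tissue markers came from a fixed list, also drawn up with earlier results of these data known. Responses without and with H2O2 were compared by subtracting 1 log2 fold change from the other and dividing by the root of the summed squared errors, two-sided, with Benjamini-Hochberg adjustment. This was also run on simulated data with normal errors of the size the authors give. Such data cannot show the wider spread of 1.97 seen in the real test ratio, so they do not vouch for the unscaled counts. Alternatives were other thresholds, filters on base mean and re-centring of the fold changes. Python 3.11.15, numpy 2.4.6, pandas 2.3.3, scipy 1.17.1 and matplotlib 3.10.9 were used.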

Additional observations from a re-analysis of the deposited data

Results flagged for a closer look

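The response to KNO3 differed between wild type without and with H2O2 for 5509 genes, a difference tested as described above, and the 16 genes with the smallest p are given here as the difference on the log2 scale, without minus with H2O2. Where the value is positive, KNO3 over mock was the higher response. The differences were 4.80 for CYP71A12, 3.50 for AT4G12500 of the lipid-transfer protein family, and 4.24 for AT2G30660 of the crotonase family. They were 2.12 for AT5G03380 of the heavy metal transport family, 4.98 for the peroxidase gene AT3G03670 and 2.08 for GSR2, a cytosolic glutamine synthetase. For GSTF14 the difference was 3.33 and for WR3 1.95.

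Where the value is negative, the response without H2O2 was the lower. The differences were -5.16 for AT1G14960, -4.18 for AT3G02620 of the stearoyl-ACP desaturase family and -8.06 for MRN1. They were -3.83 for AIR1, a gene named from auxin-treated root cultures, and -3.21 for CYP705A30. For AT1G66800 the difference was -2.89, for AT5G04120 of the phosphoglycerate mutase family -3.64 and for CYP710A4 -3.82. GSR2 stood at 1.49 ± 0.07 without and -0.59 ± 0.06 with H2O2, and AIR1 at -1.79 ± 0.17 and 2.05 ± 0.10. These 16 were chosen by a small p and a difference of at least 1. Passing an adjusted p-value under 0.01 and a minimum difference of 1 follows from that choice. All 16 also stayed past the threshold in the scaled test, which keeps the order of the genes by p.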

How the results depend on the processing

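The count of genes that rose was 2167 and of those that fell 1264. Without a minimum fold these were 6816 and 6553, and with a test against a 2-fold change 1114 and 535. With a base mean of at least 100 the count that fell was 842, against 1564 that rose. Under the other settings (adjusted p-value under 0.01, base mean of at least 10, re-centring by -0.01 or -0.02) the counts stayed between 2029 and 2268 for rises and between 1171 and 1227 for falls. The difference between responses without and with H2O2 gave 5509 genes, 1206 with a minimum difference of 1 and 823 with the scaled test. Of 466 named genes 95 lost their call in the test against a 2-fold change, 13 at 0.01 and up to 4 on re-centring. None reversed, but this was fixed in advance. Among these settings only re-centring alters the estimates, by far less than a called change. All 70 list medians moved by less than their spread with a base mean of at least 100. They also did so on re-centring, which could move them only by its small shift. In contrast, 75 of 140 counts over lists moved by over 1.5 times in the test against a 2-fold change and 39 with the base mean filter. Of 30 motif shares 19 moved when the bases after the start were left out.

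No paired analysis was possible because the tables hold no values per library, and leaving out each replicate in turn was not run for the same reason. How far 1 library carries a result is therefore not known here. Low base means limit small families such as SAUR, CLE and microRNA precursor genes, whose estimates are wide.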
